A study of Homo sapiens with 8 samples.

Results

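The genes described here are 10 long noncoding RNA genes that carry small nucleolar RNAs (snoRNAs) in their introns, namely GAS5, ZFAS1, SNHG1, SNHG5, SNHG6, SNHG7, SNHG8, SNHG12, SNHG15 and SNHG16. They were chosen by name, as growth-sensitive host transcripts and with earlier results of these data known. Matched through their Ensembl identifiers, all 10 had a row in both expression tables, among 25431 genes listed for 769-P and 24190 listed for CAKI-1. The RNA came from 769-P and CAKI-1, established human cell lines of clear cell renal cell carcinoma (RCC), kept for 16 hours without branched-chain amino acids (BCAA) or with isoleucine at 0.38 mM, leucine at 0.38 mM and valine at 0.17 mM. The labels name no engineered allele and no drug in either arm. For BCAA depletion, the study's methods describe an RPMI 1640 base without amino acids and dialyzed serum, while the lines were otherwise grown in different media, RPMI 1640 for 769-P and MEM for CAKI-1. There were 2 libraries in each of 4 groups, 8 in all, which is not the replicate number in the study's own legend, and nothing in the labels says whether the 2 libraries of a group came from separate cultures, so the p-values measure the spread between these libraries, which may be technical.

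A snoRNA host gene yields several kinds of product from one transcript. The snoRNAs are trimmed from its spliced-out introns and guide chemical modification or processing of ribosomal RNA, box C/D snoRNAs directing ribose methylation and box H/ACA snoRNAs directing pseudouridylation. The joined exons leave the nucleus as a spliced RNA with at most short open reading frames, and when ribosomes engage it, nonsense-mediated decay can remove it. Several of these host RNAs begin with a 5' terminal oligopyrimidine (5'TOP) tract, a C followed by a run of C and T bases, as do the messenger RNAs of ribosomal proteins, whose translation depends on mTOR signaling and amino acid supply. GAS5 takes its name, growth arrest specific 5, from RNA that accumulates when cells stop growing.

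The first bases of the members are shown because the 5'TOP tract is a property known for some of these hosts. The members were listed as 5'TOP host transcripts, so such tracts among them follow in part from the choice. For 6 members the window runs from 40 bases before the RefSeq transcript start (GRCh38.p14) to 20 bases from the start on, 60 bases in all, 5' to 3' on the transcribed strand. Capitals mark a TATAA between 40 and 20 bases before the start and the unbroken pyrimidines at the start. The windows lie at chr20:49278602-49278661 on the plus strand for ZFAS1, chr11:62855866-62855925 on the minus strand for SNHG1, chr6:85678714-85678773 on the minus strand for SNHG5, chr9:136728165-136728224 on the minus strand for SNHG7, chr4:118278722-118278781 on the plus strand for SNHG8 and chr1:28581854-28581913 on the minus strand for SNHG12.
ZFAS1: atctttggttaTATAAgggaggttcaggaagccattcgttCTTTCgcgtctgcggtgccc
SNHG1: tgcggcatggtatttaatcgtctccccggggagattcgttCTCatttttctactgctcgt
SNHG5: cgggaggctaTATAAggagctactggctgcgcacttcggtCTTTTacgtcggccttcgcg
SNHG7: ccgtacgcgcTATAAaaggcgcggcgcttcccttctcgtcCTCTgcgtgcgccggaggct
SNHG8: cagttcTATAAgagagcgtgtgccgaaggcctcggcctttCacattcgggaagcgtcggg
SNHG12: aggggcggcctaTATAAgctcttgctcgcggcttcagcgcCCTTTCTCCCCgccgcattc

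Of the 8 members with a RefSeq promoter entry, 6 (75.0%) had C as the first transcribed base, against 14.7% of 35116 RefSeq promoters. A C followed by at least 4 pyrimidines opened 3 of the 8 (37.5%), against 4.07% of all. TATAA on the transcribed strand in that window stood before 5 of the 8 (62.5%), against 3.77% of all. Because the members were listed as 5'TOP hosts, their shares for the first base and the pyrimidines are no independent result. SNHG6 and SNHG15 had no RefSeq promoter entry. The RefSeq entries of GAS5 and SNHG16 started elsewhere with neither feature. Their first 30 bases are instead taken from GENCODE 29 transcripts (GRCh38), at chr1:173867960-173867989 on the minus strand and chr17:76557769-76557798 on the plus strand. Both starts were picked among the transcripts that open with a C and at least 4 pyrimidines, 6 of 29 for GAS5 and 2 of 8 for SNHG16. The tracts printed for these starts thus follow from that choice. The most 5' annotated start of SNHG15, at chr7:44986932-44986961 on the minus strand, is printed beside them as a start with 1 opening pyrimidine and no tract. Capitals mark the opening pyrimidines.
GAS5: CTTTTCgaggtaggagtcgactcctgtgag
SNHG16: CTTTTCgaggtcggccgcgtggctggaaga
SNHG15: Cattaggggctcagcgcgtccctccaggcc

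Over all GENCODE 29 transcripts of the 10 genes, 23 of 136 (16.9%) opened with a C and at least 4 pyrimidines, against 4979 of 206694 transcripts in the annotation (2.41%). At least 1 such transcript was annotated for 8 of the 10 members, and for 19.1% of the 15019 genes with 4 or more transcripts. SNHG7 and SNHG15 had none. These are matches in annotated starts of genes listed as 5'TOP hosts, so the excess is no independent result. Which starts were used in these cells was not measured.

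All members were measured deeply. The libraries held from 30979773 to 64256834 reads on listed genes, and the lowest count of any member in any library was 436 reads in 769-P and 359 in CAKI-1. The deposited values are reads per gene divided by a size factor for the library, called normalized reads here, and the 2 tables were normalized separately. In 769-P the libraries with BCAA were also the deeper ones, 55829324 and 64256834 reads against 39062721 and 40130258. Of 10 markers of renal epithelium and RCC, 7 had a mean of at least 100 in 769-P and 6 in CAKI-1. PAX8, a renal transcription factor, was among them in both, as were KRT8, KRT18 and VIM, which other tissues express too. CA9, a hypoxia-induced marker of clear cell RCC, was listed in neither table, PAX2 and LRP2 were not listed in CAKI-1, and LRP2 was at most 7.70 and NDUFA4L2 at most 2.57 in 769-P. The summed level of this list was 129496 to 133511 with BCAA and 138450 to 140700 without in 769-P, and 79985 to 83210 with and 117489 to 121607 without in CAKI-1, where VIM made up most of it and changed by -0.65 (limma adjusted p = 2.1e-05). Of 10 markers of other cell types, COL1A1 alone reached a mean of 100 in 769-P, and COL1A1 and PDGFRB did so in CAKI-1. The summed level of that list ran from 310 to 342 with BCAA and 260 to 265 without in 769-P, and from 122063 to 146841 with and 99573 to 117312 without in CAKI-1, where COL1A1 was nearly all of it. PDGFRB, a receptor of mesenchymal cells, was called higher with BCAA in both lines, by 1.88 in 769-P (limma adjusted p = 8.4e-05) and 0.58 in CAKI-1 (limma adjusted p = 0.0064). CD3E, a T cell marker, and CDH5, an endothelial marker, were listed in neither table. Their part in the results below was not tested.

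Except for SNHG15, the host RNAs were lower with BCAA in both lines, the most so GAS5 and ZFAS1 in 769-P and SNHG1 and ZFAS1 in CAKI-1. In 769-P, 9 of the 10 members were called lower with BCAA (limma, Benjamini-Hochberg adjusted p under 0.05) and 0 higher, where 18.2% of 22391 tested genes were called lower and 20.3% higher. In CAKI-1, the same 9 members were called lower and 0 higher, where 9.05% of 21347 tested genes were called lower and 10.8% higher. Among 19406 genes tested in both tables, 5.83% were called lower in both. Because the members were chosen with earlier results of these data known, these shares are a background and no independent test. The median log2 fold change, with BCAA minus without on the log2(value + 1) scale, was -0.96 over the members against -0.02 over all tested genes in 769-P, and -0.82 against -0.01 in CAKI-1. In each line 5 members were called lower by at least 2-fold, a size that 4.34% of all genes reached in 769-P and 0.679% in CAKI-1. In CAKI-1, GAS5 and SNHG8 lay just past that size, and 3 members remained past it after median centering of the libraries (GAS5 at -0.96, SNHG8 at -0.98) or without the first library with BCAA (spread from the other 7). For the same 9 members, both libraries with BCAA lay below both libraries without, an order held by 33.5% of genes in 769-P and 28.8% in CAKI-1. With 2 libraries against 2 an exact permutation test of 1 gene cannot give a two-sided p below 0.33, so the calls rest on limma's spread pooled over genes.

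Summed over the 10 genes, the host RNAs stood at 20200 and 21502 normalized reads in 769-P with BCAA, against 47358 and 47378 without it. In CAKI-1 the sums were 40309 and 42802 with BCAA and 68386 and 69124 without. The sums did not overlap between conditions in either line. In bulk RNA, fewer cells expressing a gene and less of its RNA per cell cannot be told apart.

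**Figure D1:**
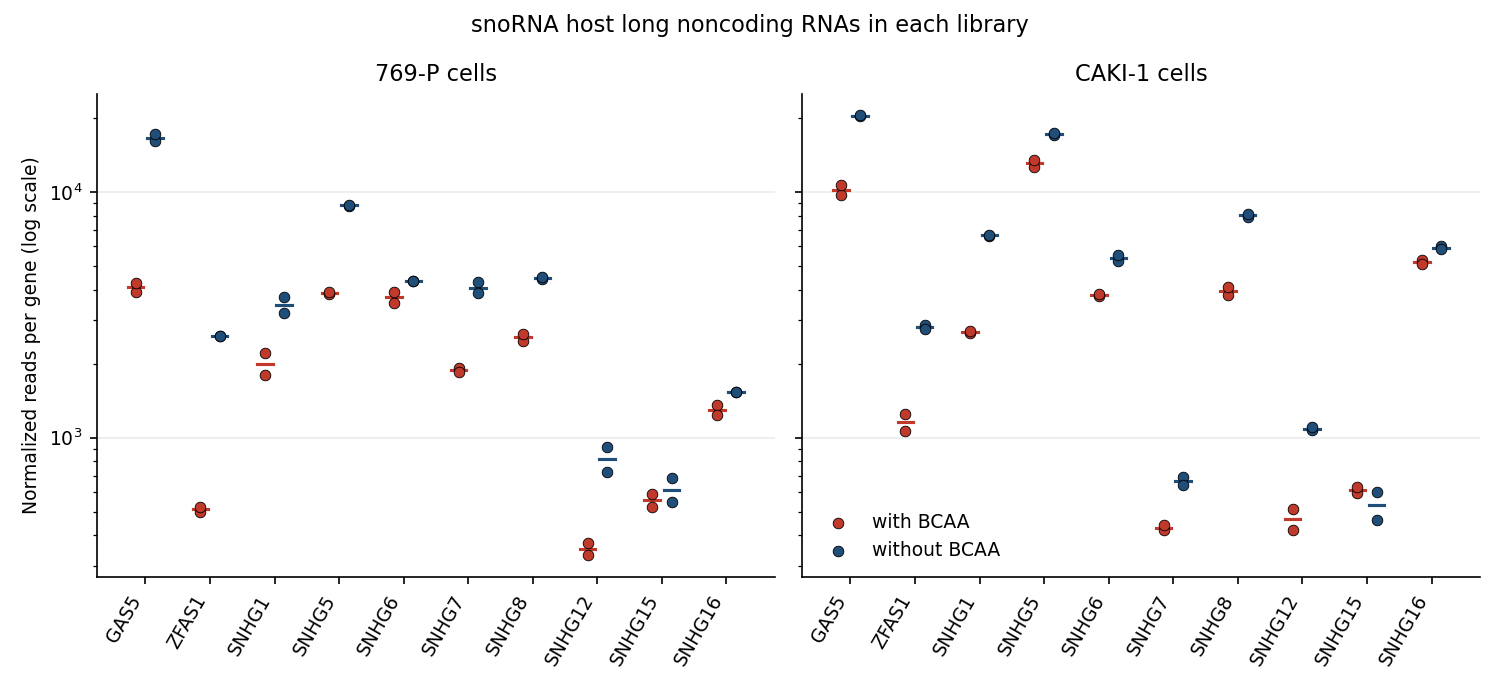
Normalized reads of the 10 host RNAs in every library (log axis), with 769-P on the left and CAKI-1 on the right. Each point is 1 library, red with BCAA and blue without, and each bar is the mean of the 2 libraries; red and blue points overlap for SNHG15 only.

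GAS5 (ENSG00000234741, chr1:173863900-173868882, minus strand, GRCh38) contains 11 RefSeq snoRNAs, most of them of the box C/D kind. In 769-P it stood at 3920 and 4265 normalized reads with BCAA and at 16063 and 17171 without. In CAKI-1 it stood at 9691 and 10686 with BCAA and at 20362 and 20487 without. All 4 libraries without BCAA exceeded every library with BCAA of their line, by a wide margin in 769-P. The log2 fold change was -2.02 (SE 0.05, 95% confidence interval -2.14 to -1.91, limma adjusted p = 1.5e-10), or 4.06-fold more without BCAA, in 769-P. In CAKI-1 it was -1.0 (SE 0.06, -1.14 to -0.87, limma adjusted p = 1.6e-06), or 2.01-fold more without.

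ZFAS1 (ENSG00000177410, chr20:49278178-49295738, plus strand) is transcribed head to head with the helicase-like gene ZNFX1 and hosts SNORD12, SNORD12B and SNORD12C. Its levels in 769-P were 497 and 523 with BCAA and 2587 and 2583 without. In CAKI-1 they were 1064 and 1253 with BCAA and 2862 and 2762 without. It was the most lowered member in 769-P, at -2.34 (SE 0.07, limma adjusted p = 3.6e-10), 5.06-fold more without BCAA, and ranked 210 of 22391 genes from the most lowered. In CAKI-1 the change was -1.28 (SE 0.08, limma adjusted p = 2.7e-06), 2.43-fold more without, at rank 732 of 21347.

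SNHG1 (ENSG00000255717, chr11:62851988-62855914, minus strand) holds 9 RefSeq snoRNAs, among them SNORD22 and the run from SNORD25 to SNORD31. Its normalized reads in 769-P were 1791 and 2204 with BCAA and 3736 and 3226 without, so the 2 libraries of each condition were themselves well apart. In CAKI-1 they were 2660 and 2728 with BCAA and 6629 and 6684 without. The change was -0.81 (SE 0.09, limma adjusted p = 2.3e-05) in 769-P and -1.30 (SE 0.06, limma adjusted p = 2.3e-07) in CAKI-1, where SNHG1 was the most lowered member, at rank 689.

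SNHG5 (ENSG00000203875, chr6:85660950-85678748, minus strand) hosts SNORD50A and SNORD50B. In 769-P it read 3836 and 3905 with BCAA and 8802 and 8867 without, with each pair of replicates nearly equal. In CAKI-1, where it was among the most abundant members, it read 12610 and 13516 with BCAA and 17000 and 17455 without. The change was -1.19 (SE 0.05, limma adjusted p = 1.8e-09), 2.28-fold, in 769-P and -0.40 (SE 0.06, limma adjusted p = 5.6e-04), 1.32-fold, in CAKI-1.

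SNHG6 (ENSG00000245910, chr8:66921684-66926398, minus strand), the host of SNORD87, moved little in 769-P and more in CAKI-1. Its levels were 3542 and 3905 with BCAA and 4328 and 4361 without in 769-P. In CAKI-1 they were 3767 and 3833 with BCAA and 5221 and 5535 without. The conditions did not overlap in either line, and the change was -0.22 (SE 0.06, limma adjusted p = 0.0073) in 769-P and -0.50 (SE 0.06, limma adjusted p = 1.8e-04) in CAKI-1.

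SNHG16 (ENSG00000163597, chr17:76557766-76565348, plus strand) hosts SNORD1A, SNORD1B and SNORD1C. It stood at 1353 and 1237 with BCAA and 1530 and 1538 without in 769-P. In CAKI-1 it stood at 5266 and 5108 with BCAA and 6010 and 5851 without. Its changes were small, -0.25 (SE 0.07, limma adjusted p = 0.014) in 769-P and -0.19 (SE 0.06, limma adjusted p = 0.033) in CAKI-1. Centering each library on its median ended both calls, with limma adjusted p of 0.057 and 0.12.

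Of the hosts of box H/ACA snoRNAs, SNHG7 (ENSG00000233016, chr9:136721366-136728184, minus strand) carries SNORA17A and SNORA17B. In 769-P it read 1927 and 1853 with BCAA and 4290 and 3866 without. In CAKI-1 it was far scarcer, at 420 and 439 with BCAA and 694 and 641 without. The change was -1.11 (SE 0.06, limma adjusted p = 4.8e-08), 2.15-fold, in 769-P and -0.63 (SE 0.10, limma adjusted p = 0.0011), 1.55-fold, in CAKI-1.

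SNHG8 (ENSG00000269893, chr4:118278709-118279823, plus strand), the host of SNORA24, had 2480 and 2648 normalized reads with BCAA and 4426 and 4493 without in 769-P. In CAKI-1 it had 3811 and 4093 with BCAA and 7937 and 8146 without. The libraries of each condition kept close together, and the change was -0.80 (SE 0.05, limma adjusted p = 2.3e-07) in 769-P and -1.03 (SE 0.06, limma adjusted p = 1.4e-06) in CAKI-1.

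SNHG12 (ENSG00000197989, chr1:28578538-28583132, minus strand) carries SNORD99 together with the H/ACA snoRNAs SNORA16A, SNORA44 and SNORA61. It was the scarcest member in 769-P with BCAA, at 332 and 373 against 914 and 726 without. In CAKI-1 it read 422 and 514 with BCAA and 1075 and 1103 without. The change was nearly equal in the lines, -1.21 (SE 0.12, limma adjusted p = 6.2e-06) in 769-P and -1.22 (SE 0.11, limma adjusted p = 2.0e-05) in CAKI-1.

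SNHG15 (ENSG00000232956, chr7:44983023-44986961, minus strand), the host of SNORA9, was the member without a call. It stood at 521 and 589 with BCAA and 682 and 547 without in 769-P. In CAKI-1 it stood at 597 and 632 with BCAA and 598 and 462 without. The conditions overlapped in both lines, and the estimates lay on opposite sides of 0. They were -0.14 (SE 0.12, 95% confidence interval -0.40 to 0.12, limma adjusted p = 0.39) in 769-P and 0.22 (SE 0.12, -0.05 to 0.50, limma adjusted p = 0.25) in CAKI-1. These intervals leave out a change as large as that of GAS5 or ZFAS1 in the same line.

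**Figure D2:**
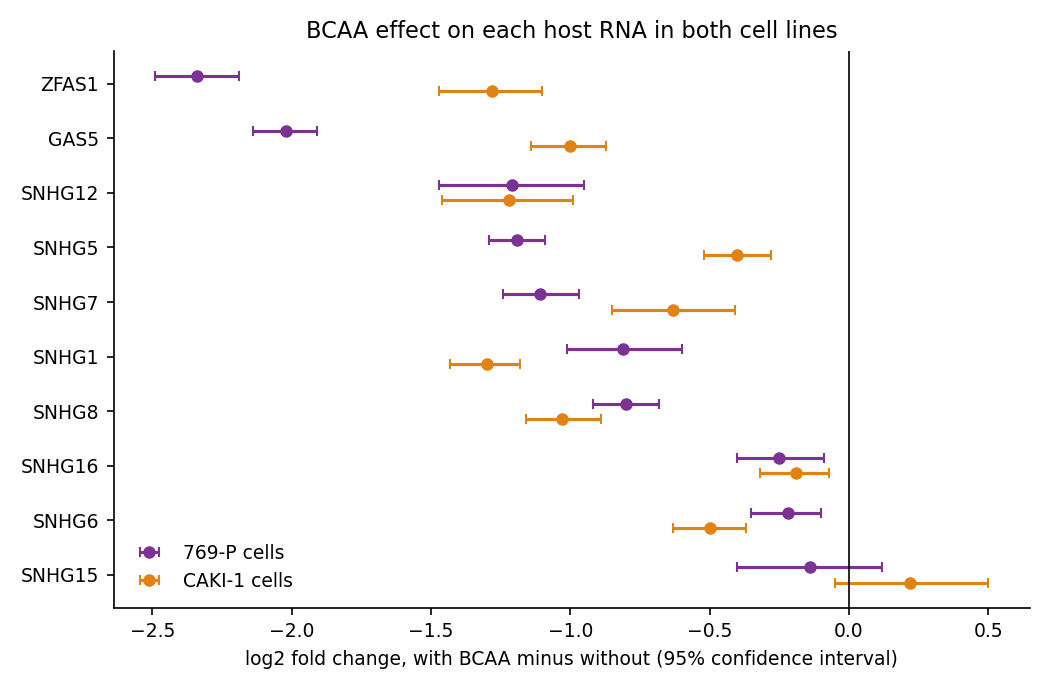
Log2 fold change of each host RNA, with BCAA minus without, in 769-P (purple) and CAKI-1 (orange), with bars for the 95% confidence interval from limma. The genes are ordered by the change in 769-P, from ZFAS1 at -2.34 at the top to SNHG15 at -0.14, whose intervals include 0 in both lines.

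On the reads recovered from the values, edgeR and DESeq2 each called 9 of 10 members lower in each line, where edgeR called 17.5% of all genes lower in 769-P and 10.1% in CAKI-1, and DESeq2 15.8% and 7.94%. Thinning every library to the depth of the shallowest left 9 members called in 769-P, against 18.0% of genes, and 8 in CAKI-1, against 7.31%, SNHG16 being lost with a limma adjusted p of 0.056. With a fit inside 1 line, leaving out any 1 library left 5 or 6 members called in 769-P and 0 in CAKI-1, where no gene of the whole table was then called and the direction of the 9 members did not change. With the spread taken from the other 7 libraries instead, these members also kept their direction. The calls of SNHG6 in 769-P and of SNHG16 in both lines did not hold in all of these fits. With a library left out, the log2 fold change of SNHG6 in 769-P ran from -0.29 to -0.15. That of SNHG16 ran from -0.31 to -0.18 in 769-P and from -0.22 to -0.17 in CAKI-1.

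The size of the BCAA effect differed between the lines for 6 of the 10 members by the interaction term of a limma fit over the 8 libraries, where 21.1% of 19406 genes differed. The effect was further down in 769-P for 4 members, against 10.1% of genes, and further up for 2, against 10.9%. GAS5 differed by -1.02 (769-P minus CAKI-1, SE 0.08, limma adjusted p = 1.8e-06) and ZFAS1 by -1.06 (SE 0.11, limma adjusted p = 2.0e-05). SNHG5 differed by -0.79 (SE 0.07, limma adjusted p = 3.0e-06) and SNHG7 by -0.47 (SE 0.11, limma adjusted p = 0.007). In these 4 the loss with BCAA was thus the larger one in 769-P. SNHG1 went the other way, at 0.50 (SE 0.12, limma adjusted p = 0.011), as did SNHG6 at 0.28 (SE 0.08, limma adjusted p = 0.028). The call for SNHG6 was lost without 5 of the 8 libraries in turn, that for SNHG1 without the second 769-P library without BCAA (0.39, limma adjusted p = 0.066) and that for SNHG7 without the first (-0.40, limma adjusted p = 0.053). With a required difference of at least 1.5-fold, 3 members differed, namely GAS5, ZFAS1 and SNHG5.

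The other members were not shown to differ between lines, and their intervals varied in width. SNHG12 had a difference of 0.01 with an interval of -0.37 to 0.39. SNHG16 had a difference of -0.05 with an interval of -0.23 to 0.13. SNHG8 was close to the threshold, at 0.23 (0.06 to 0.40, limma adjusted p = 0.057), and was called by edgeR (adjusted p = 0.048) and DESeq2 (adjusted p = 0.047). For SNHG15 the difference was -0.36 (-0.78 to 0.05, limma adjusted p = 0.21).

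**Figure D3:**
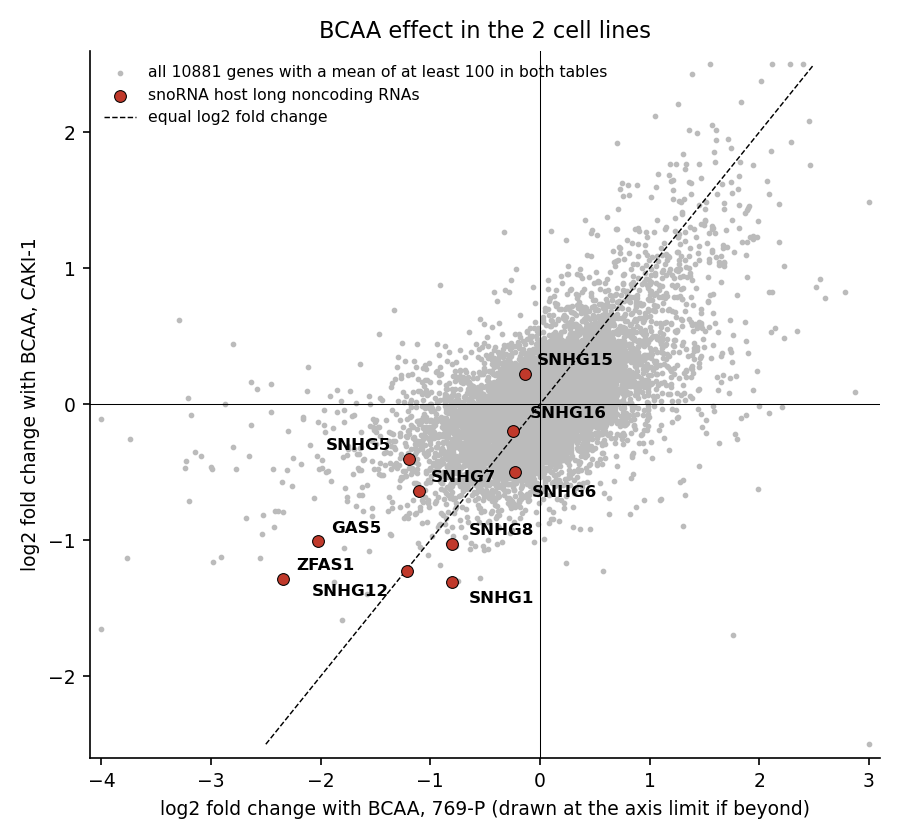
Log2 fold change with BCAA in 769-P (horizontal) against CAKI-1 (vertical) for the 10 host RNAs (red) and for 10881 genes whose mean reached 100 in both tables (grey, drawn at the axis limit if beyond). GAS5, ZFAS1, SNHG5 and SNHG7 lie on the 769-P side of the dashed line of equal change and SNHG1, SNHG6 and SNHG8 on the CAKI-1 side.

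Levels were compared between members as normalized reads per kilobase of merged exon, within a line. In 769-P with BCAA, SNHG6 (mean 2986) and SNHG8 (2778) came first with overlapping libraries, followed by SNHG5 (1379) and GAS5 (1127). Without BCAA the order became SNHG8 (4831), GAS5 (4576), SNHG6 (3484) and SNHG5 (3148), with no overlap between neighbours. At the low end, SNHG12 (82.6) lay under SNHG15 (152) with BCAA, and without BCAA the libraries of the pair overlapped (192 and 168).

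In CAKI-1 with BCAA the order was SNHG5 (4655), SNHG8 (4282), SNHG6 (3047) and GAS5 (2806) per kilobase, and without BCAA it was SNHG8 (8712), SNHG5 (6139), GAS5 (5625) and SNHG6 (4312). The lowest level per kilobase with BCAA was that of SNHG7 (98.8), whose libraries overlapped those of SNHG12 (110). The order depends on the exon length used: with the exons of the GENCODE basic set, GAS5 came first in 769-P without BCAA (10295) and in CAKI-1 in both conditions (6313 and 12654).

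Members followed GAS5 to different degrees. Over the 8 libraries, centred within each line, the Pearson correlation of log2 values with GAS5 was 0.998 for ZFAS1, 0.990 for SNHG5 and 0.987 for SNHG7. It was 0.931 for SNHG12, 0.915 for SNHG16 and 0.901 for SNHG8. SNHG1 (0.838) and SNHG6 (0.762) followed GAS5 less closely and correlated at 0.98 with each other. That likeness was not confined to the pair. SNHG8 correlated at 0.98 with SNHG1 and 0.96 with SNHG6, and SNHG12 at 0.97 and 0.91. The correlation of SNHG15 with GAS5 was 0.055. Ranked among 10881 genes by this correlation, ZFAS1 came at 3, SNHG5 at 82, SNHG7 at 109, SNHG12 at 1079, SNHG16 at 1305, SNHG8 at 1493, SNHG1 at 2166 and SNHG6 at 2726, so many other genes followed GAS5 as closely as the latter 5. The 8 points share their condition and their library depth, so these are descriptions. Over 10881 genes whose means reached 100 in both tables, the 5 most like GAS5 all reached 0.998. They were ZFAS1 itself, FTH1P2, a ferritin heavy chain pseudogene that may share reads with its parent, PSMF1, a proteasome inhibitor subunit, DUSP4, a phosphatase acting on MAP kinases, and FNTA, a farnesyltransferase subunit. In 769-P and CAKI-1 the log2 fold changes were -1.13 and -0.58 for FTH1P2, -1.53 and -0.82 for DUSP4, -0.49 and -0.24 for PSMF1, and -0.47 and -0.23 for FNTA, all smaller than those of GAS5.

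The snoRNAs themselves were hardly captured. RefSeq places 37 snoRNA genes inside the members and GENCODE 29 places 26, of which SNORD12B, SNORD12C, SNORD99 and SNORD1B had a row. The most reads that any of them had in a library was 16, and none was called in either line. SNORD12B had 9 and 11 reads with BCAA and 7 and 8 without in 769-P, and 10 and 13 with and 8 and 2 without in CAKI-1. A change in the snoRNAs of ZFAS1 was therefore not detectable from so few reads. In GENCODE 29 the snoRNAs with a row share 0 exon bases with their host, and those without a row share from 34 to 137. Why the snoRNAs had so few reads or no row was not tested. The GENCODE 29 sequences of SNORD12B (91 bases) and SNORD12C (89 bases) are printed to show what the intron yields. Capitals mark the TGATGA of the C box and the last CTGA, the D box.
SNORD12B: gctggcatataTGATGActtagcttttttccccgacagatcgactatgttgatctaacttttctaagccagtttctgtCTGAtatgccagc
SNORD12C: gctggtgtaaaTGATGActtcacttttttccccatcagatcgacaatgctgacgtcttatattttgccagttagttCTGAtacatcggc

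Whether reads were assigned by strand is not given in the sources used here, and 6 members overlap a gene on the opposite strand, where reads of the pair could not then be told apart. ZNFX1 shares 249 exon bases with ZFAS1. Its normalized reads were 5465 and 4861 with BCAA and 7808 and 7966 without in 769-P, a log2 change of -0.61 (limma adjusted p = 3.4e-06), and it changed by -0.08 (limma adjusted p = 0.47) in CAKI-1. Both changes were smaller than those of ZFAS1. ZBTB37 overlaps GAS5 without a shared exon base and changed by -0.53 (limma adjusted p = 4.3e-05) in 769-P and 0.08 (limma adjusted p = 0.81) in CAKI-1. FAM69B shares 1094 exon bases with SNHG7, was called lower in 769-P at -0.58 (limma adjusted p = 0.03), and at no more than 256 normalized reads was far below SNHG7. MCMDC2 at SNHG6, TRNAU1AP at SNHG12 and GAS5-AS1 were not called in either line, and AC015802.6 at SNHG16 had no row.

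Other noncoding hosts of snoRNAs were less uniform. Of 19 tested in 769-P, 4 were called lower and 3 higher, with a median of -0.23. Of 18 tested in CAKI-1, 3 were lower and 1 higher, with a median of -0.19. Several of this list were far scarcer than any member, and a gene called higher in 769-P had at most 22.7 normalized reads in a library. The part of level in this contrast was not tested. Like the members, this list was chosen with earlier results of these data known. Over all tested genes, 18.2% were called lower and 20.3% higher in 769-P, and 9.05% and 10.8% in CAKI-1. In 769-P the counts of this list were near those shares. The same shares stand beside the counts of the lists that follow. EPB41L4A-AS1 was the most lowered of those called, from 1323 and 1223 normalized reads without BCAA to 340 and 388 with it in 769-P (-1.81, SE 0.10, limma adjusted p = 2.8e-08). In CAKI-1 it changed by -1.58 (SE 0.09, limma adjusted p = 8.9e-07). SNHG29 was lower by nearly the same amount in both lines, at -0.86 (limma adjusted p = 8.3e-09) and -0.88 (limma adjusted p = 1.0e-05). DANCR, known for restraining differentiation, was called higher in 769-P (0.71, limma adjusted p = 1.3e-05), and SNHG30 was higher in both lines (0.71, limma adjusted p = 0.003, and 0.63, limma adjusted p = 0.049).

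The protein-coding snoRNA hosts leaned the same way with smaller changes. Of 33 tested in each line, 22 were called lower and 5 higher in 769-P (median -0.35), and 23 lower and 2 higher in CAKI-1 (median -0.36). EEF2, the elongation factor that moves the ribosome along, changed by -0.71 (limma adjusted p = 6.7e-08) in 769-P and -0.59 (limma adjusted p = 6.2e-05) in CAKI-1. RPL13A, a protein of the large ribosomal subunit, changed by -0.80 (limma adjusted p = 7.0e-08) and -0.60 (limma adjusted p = 3.6e-05). RCC1, the exchange factor of the Ran GTPase, was higher with BCAA, by 0.75 (limma adjusted p = 7.7e-07) and 0.53 (limma adjusted p = 1.5e-04).

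Among messenger RNAs of cytosolic ribosomal proteins, the classic 5'TOP class, 47 of 76 were called lower and 4 higher in 769-P (median -0.19), and 60 of 77 were lower and 2 higher in CAKI-1 (median -0.34). RPL12 (-0.69, limma adjusted p = 1.6e-06) was among the lowest in 769-P and RPL15 (-0.56, limma adjusted p = 9.1e-05) in CAKI-1. RPS27 fell furthest in both lines (-1.55, limma adjusted p = 8.4e-07, and -1.08, limma adjusted p = 8.5e-06), while RPS10 and RPS26 were called higher. RPS27, RPS10 and RPS26 have near-identical copies elsewhere in the genome, so their counts are uncertain, and the highest value of any of them was 1879.

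Long noncoding RNAs without snoRNAs also contained called members. In 769-P 9 of 15 were lower and 1 higher (median -0.29), and in CAKI-1 5 of 17 were lower and 1 higher (median -0.13). NEAT1, the scaffold of nuclear paraspeckles, changed by -0.93 (limma adjusted p = 4.4e-04) in 769-P and -0.90 (limma adjusted p = 1.6e-06) in CAKI-1. NORAD, which binds Pumilio proteins, changed by -0.45 (limma adjusted p = 1.2e-06) and -0.43 (limma adjusted p = 2.5e-04). MALAT1, a nuclear speckle RNA, was called in 769-P only (-1.18, limma adjusted p = 6.9e-05), and its effect differed between the lines by -0.85 (limma adjusted p = 0.033).

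**Figure D4:**
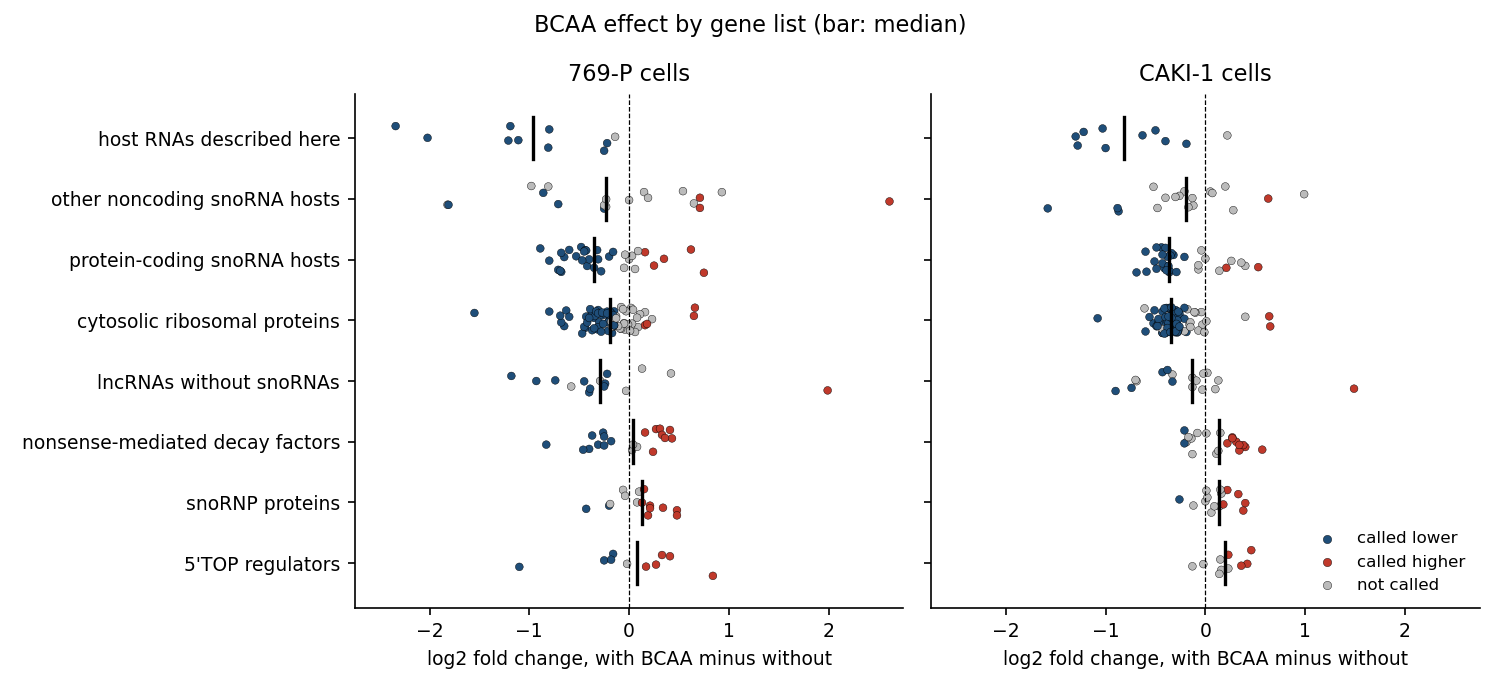
Log2 fold change, with BCAA minus without, of every tested gene in the 8 lists named on the axis (the amino acid response and marker lists are not drawn), for 769-P (left) and CAKI-1 (right). Points are genes, blue if called lower, red if called higher and grey if not called, and black bars are list medians, at -0.96 and -0.82 for the 10 host RNAs, the furthest left of the lists drawn.

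The messenger RNAs of factors known to act on such RNAs did not move as a block. The amount and activity of the proteins were not measured. Of 20 factors of nonsense-mediated decay, 9 were called lower and 8 higher in 769-P (median 0.03), and 2 lower and 9 higher in CAKI-1 (median 0.14). SMG1, the kinase that phosphorylates UPF1, was lower in 769-P (-0.83, limma adjusted p = 4.8e-07). UPF1, the central helicase of the pathway, was higher in 769-P (0.16, limma adjusted p = 0.036) and in CAKI-1 (0.40, limma adjusted p = 6.1e-04), and DCP2, a decapping enzyme, was higher in both lines (0.36, limma adjusted p = 0.0016, and 0.57, limma adjusted p = 8.3e-04).

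Of 15 proteins of snoRNA particles or their assembly, 8 were higher and 2 lower in 769-P (median 0.13), and 5 higher and 1 lower in CAKI-1 (median 0.14). RUVBL1, an ATPase of the assembly machinery, changed by 0.48 (limma adjusted p = 1.8e-05) and 0.38 (limma adjusted p = 0.0012). ZNHIT6, an assembly factor for box C/D particles, changed by -0.43 (limma adjusted p = 2.0e-05) and -0.26 (limma adjusted p = 0.0075).

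Of 10 genes for proteins that bind or regulate 5'TOP transcripts, 5 were higher and 4 lower in 769-P (median 0.08), and 4 higher and 0 lower in CAKI-1 (median 0.20). EIF4EBP1, which holds back the cap-binding protein EIF4E when mTOR is inactive, changed by -1.10 (limma adjusted p = 2.8e-09) in 769-P, and its effect differed from that in CAKI-1 by -0.97 (limma adjusted p = 1.4e-05). EIF4E itself was higher in both lines, by 0.84 (limma adjusted p = 3.2e-06) and 0.36 (limma adjusted p = 0.014).

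The amino acid response genes, which are induced when an amino acid runs short, were counted in the same way. In 769-P 24 of 25 were called lower with BCAA and 1 higher, with a median of -2.16. In CAKI-1 10 of 24 were lower and 3 higher, with a median of -0.21. CHAC1, a glutathione-degrading enzyme, stood at 158 and 156 with BCAA and 2103 and 2122 without in 769-P (-3.74, limma adjusted p = 6.7e-11). DDIT3, a transcription factor of the stress response, changed by -1.12 (limma adjusted p = 2.6e-05) in CAKI-1. For the members the medians of the lines were -0.96 and -0.82, and the part of this response in the members' levels was not tested.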

How the data were processed

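RNA-seq of 769-P and CAKI-1 cells with or without BCAA was analysed in 8 libraries, grouped by the cell line and treatment in the labels. The authors deposited, in a table per line, a signal for each Ensembl gene, which is reads divided by a library size factor (0.777 to 1.32). The submitters' processing notes name Trim Galore, TopHat2 2.1.0, SAMtools 1.3.1, HTSeq 0.6.0, DESeq and DESeq2, and the build hg38. The strand setting is not given in the sources used here. Every value (100%, within 0.01 of a whole read) was a whole multiple of its library's step, which allowed reads to be recovered. GENCODE 29 held 25032 of 25431 identifiers in 769-P and 23881 of 24190 in CAKI-1. Symbols came from a separate list of gene names, or from GENCODE 29 where that list had none. Between 30979773 and 64256834 reads lay on listed genes.

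Genes with a mean of at least 1 were tested in each line on log2(value + 1) with limma 3.58.1 (R 4.3.3, eBayes with trend, Benjamini-Hochberg threshold 0.05). Fold changes on this scale understate changes of low genes. Lines were compared by an interaction term over genes tested in both tables. The limma fit within a line and the interaction fit were first checked on simulated reads. The alternatives below were not. The members and the lists were chosen with earlier results of these data known. Beside the members, named genes are at most 3 called genes in each direction per list and line, those of largest change at a mean of at least 100, the snoRNAs and overlapping genes at the members, and the 5 genes most correlated with GAS5. Markers are named as values of a sample check. Alternatives changed the pseudocount, filter, scaling, depth, threshold, replicate block, libraries and tool (edgeR 4.0.16 and DESeq2 1.42.0 on recovered reads). Over the whole tables edgeR called 3920 genes lower and 4874 higher in 769-P, and 2160 lower and 2237 higher in CAKI-1. Leaving out a library with the spread taken from the other 7 was added after seeing the data. Same-numbered libraries did not deviate together (correlation -0.0884 in 769-P and 0.0615 in CAKI-1), so the numbers were not used as pairs.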

Additional observations from a re-analysis of the deposited data

Results flagged for a closer look

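The BCAA effect differed between 769-P and CAKI-1 for 6 host RNAs, by the interaction term of a limma fit over the 8 libraries with adjustment over 19406 genes. The differences (769-P minus CAKI-1, log2) were -1.02 for GAS5, -1.06 for ZFAS1, -0.79 for SNHG5 and -0.47 for SNHG7, whose fall with BCAA was larger in 769-P, and 0.50 for SNHG1 and 0.28 for SNHG6, whose fall was larger in CAKI-1. The lines also differed in their usual medium, and the libraries with BCAA were deeper in 769-P. With all libraries thinned to 1 depth, 6 members still differed. The share of all genes that differed was 21.1% at full depth and is not given here for the thinned reads. The 2 lines are single lines, so a difference between them is one between these lines.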

How the results depend on the processing

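With 2 libraries a group, the spread within a condition is poorly known, and depth and condition cannot be told apart in 769-P outside the thinned reads. The 9 members called lower kept their direction under all alternatives run. Leaving out 1 library, in fits within a line, left 5 to 6 members called lower in 769-P and 0 in CAKI-1, and over all genes 1354 to 1510 lower and 1493 to 2211 higher in 769-P and 0 in CAKI-1. With the spread of the other 7 libraries, the calls of SNHG6 in 769-P and of SNHG16 in both lines did not always hold. Which members had an effect further up in 769-P also varied with the library left out. With a fold change of at least 1.5, 7 members were lower in 769-P, 6 in CAKI-1 and 3 differed between lines, and 1911 genes were lower and 1984 higher in 769-P, 481 lower and 725 higher in CAKI-1, and 927 and 917 further down and up in 769-P, with 0 members among the latter. Quantile normalization gave 1417 higher in CAKI-1. With the replicate block, 9 members were called lower in 769-P and 8 in CAKI-1, where SNHG16 was lost (limma adjusted p = 0.058). The share of all genes called with the block is not given here, and the numbers do not pair the libraries. The difference between lines turned for SNHG12, to -0.01 (quantile normalization), -0.03 (thinned reads) and, with a library left out, -0.15 to 0.18. With a library left out it ran from -0.12 to 0.01 for SNHG16, and the change of SNHG15 in 769-P from -0.30 to 0.02. The cause was not tested.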
